A study of Mus musculus with 157 samples.

Results

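The proteasome is the barrel-shaped protease that degrades ubiquitin-tagged proteins. Transcripts of its constitutive subunits were followed across the livers of 157 male mice. The list named 31 subunit genes by Ensembl identifier, chosen by membership of the complex and not by their values. It holds the alpha-ring genes Psma1 to Psma7 and the beta-ring genes Psmb1 to Psmb7 of the 20S core. It also holds the ATPase genes Psmc1 to Psmc6 and 11 non-ATPase genes (Psmd1, Psmd2, Psmd3, Psmd4, Psmd6, Psmd7, Psmd8, Psmd11, Psmd12, Psmd13 and Psmd14) of the 19S regulatory particle. Of these, 30 were among the 23176 genes measured, 7 in the alpha ring, 6 in the beta ring, 6 ATPases and 11 non-ATPases. Psmb5, the chymotrypsin-like catalytic subunit, was not analysed here. Symbols are those given with the list of identifiers, since no reference table used here pairs Ensembl identifiers with symbols.

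In the 26S proteasome, a 20S core of stacked alpha and beta rings is capped by 19S particles. The alpha rings gate the entrance, and the beta rings carry the proteolytic sites, Psmb6 with caspase-like and Psmb7 with trypsin-like activity. The ATPase ring of the 19S base unfolds substrates and threads them into the core. Ubiquitin receptors such as Psmd4 bind the substrate, and the lid enzyme Psmd14 removes its ubiquitin. The subunits assemble in fixed proportions, and in mammalian cells the transcription factor NRF1 is known to raise many subunit genes together when proteasome activity is short.

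All mice were pre-Collaborative Cross males, 1 per strain, from lines under 4 to 11 generations of sister-brother mating. The founders were 129S1/SvImJ, A/J and C57BL/6J, then NOD/LtJ with NZO/H1LtJ, and the wild-derived CAST/Ei, PWK/Ph and WSB/Ei, 8 in all. Each mouse ate standard chow, went through a programme of alcohol exposure and exercise, and was killed at 12 to 15 weeks of age. The labels do not tell which mouse had which intervention, and there is no untreated group. The strains were still partly heterozygous, so a mouse stands for its line only in part. Grouping by kill date gave 10 cohorts, with 20, 21, 11, 5, 6, 10, 37, 22, 12 and 13 mice in order of date. The mice were killed on 18 dates.

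Each value is a rank score. For every gene the 157 mice were ranked and the ranks turned into normal quantiles, from -2.49 for the lowest mouse to 2.49 for the highest. A score therefore says which livers were high or low for a subunit and holds no transcript level or fold change, and 1 unit is about 1 SD over the mice. The scores of 2 arrays spread more widely over all genes than the rest (SD 1.57 and 1.40, against a median of 0.943). These arrays, in cohorts 9 and 2, had low mean scores over the 30 subunits, -1.38 and -0.976. Because levels are lacking and other identifiers have no symbol, hepatocyte and other cell type markers were not checked. A lower score in whole liver can stand for fewer cells of a type or for less RNA per cell, which cannot be told apart.

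Proteasome subunit transcripts went up and down together from liver to liver. The median correlation between subunits was 0.34 (Pearson r over 157 mice, 435 pairs), whereas the median over all 268551900 gene pairs was 0.0082. In all, 53 of the 435 subunit pairs (12.2%) reached an r of 0.5, against 0.173% of all gene pairs. At an r of 0.3 there were 251 subunit pairs (57.7%), against 3.44% of all pairs, and at 0.7 there was 1, against 0.00145%. Negative values occurred in 7 subunit pairs, compared with 47.6% of all gene pairs. With the p of r adjusted by Benjamini-Hochberg over all gene pairs, 328 subunit pairs (75.4%) were positively correlated and 0 negatively (8.98% and 5.78% of all pairs). Gene pairs share mice and genes, so these counts describe the set and are no test of it.

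**Figure D1:**
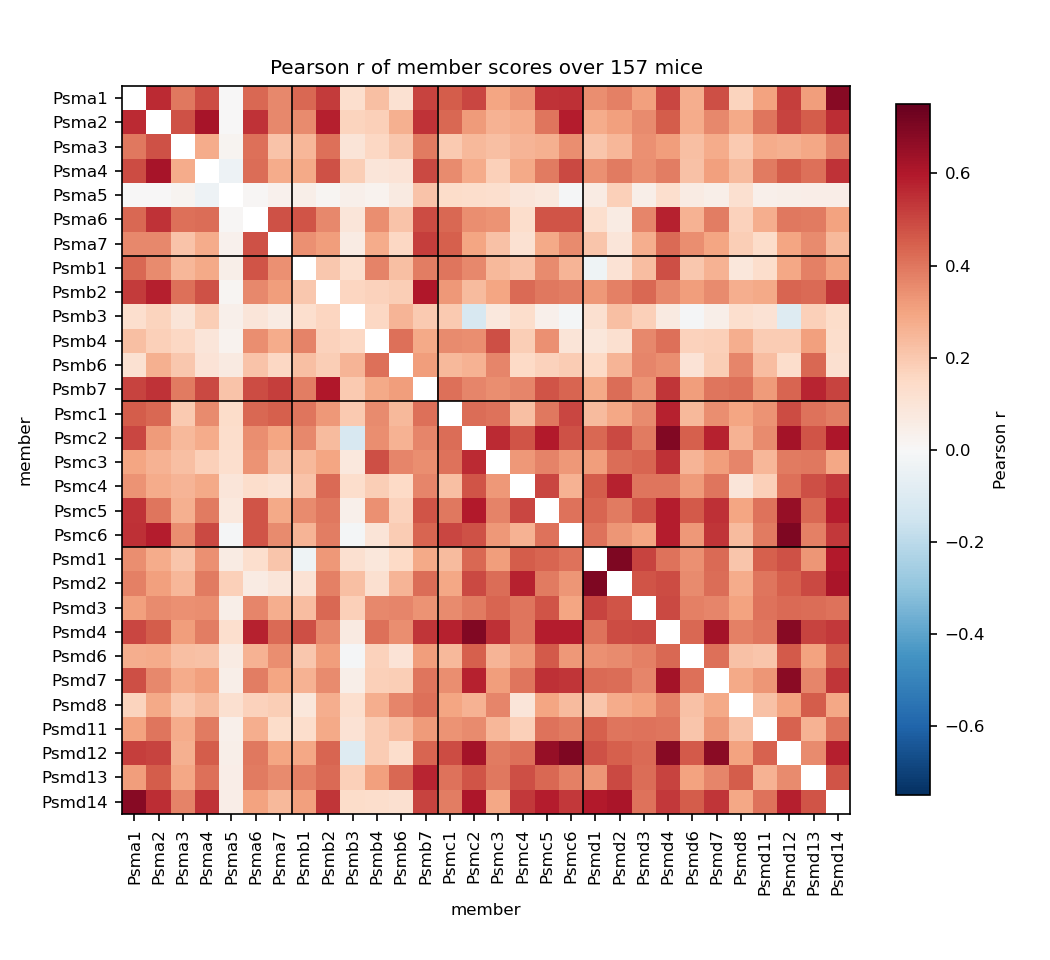
Pearson r between the scores of each pair of the 30 subunit genes over 157 mice, with lines separating alpha ring, beta ring, ATPase and non-ATPase genes and the diagonal left blank. Most cells are red, with a median r of 0.34, and the rows of Psma5 and Psmb3 are pale.

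After batch and cohort means were removed, the median r was 0.32 and 47 pairs reached 0.5 (10.8%, against 0.130% of all gene pairs so treated). It was 0.33 without the 2 wide arrays and 0.36 after each array's mean score was subtracted. Removing component 1 of all genes, which holds 12.1% of the variance of the table, left a median of 0.29 and 39 pairs at 0.5, against 0.00885% of all gene pairs so treated. Within the 8 hybridization batches (11 to 24 mice each), the median ran from 0.16 in batch 4 to 0.53 in batch 6. Within the cohorts of at least 10 mice, it ran from 0.19 in cohort 2 to 0.52 in cohort 10.

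By role, the 19S genes had the higher median r. The 20S medians include Psma5 and Psmb3, whose highest r with any subunit was 0.21 and 0.25. Medians by role without these genes were not taken. Among the non-ATPase genes the median r was 0.42 (55 pairs), and among the ATPase genes 0.41 (15 pairs). Between ATPase and non-ATPase genes it was 0.40 (66 pairs). The alpha ring gave 0.36 (21 pairs) and the beta ring 0.22 (15 pairs). Alpha-ring against beta-ring genes, which form 1 core, stood at 0.24 (42 pairs). Splitting the 19S particle by structure gave 0.42 inside the base, 0.39 inside the lid and 0.41 between them. The 20S genes stood at 0.29 with the base and 0.29 with the lid. No test of the difference between role groups was made, because their pairs share genes. The 34 pairs on a shared chromosome had a median of 0.32 and the other 401 pairs 0.34.

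The 5 most closely correlated pairs joined a 19S gene to another subunit. Psmc6 (ENSMUSG00000021832_at), an ATPase, and Psmd12 (ENSMUSG00000020720_at), a lid subunit, stood highest (r = 0.70, rho = 0.68). Across batches this pair's r ran from 0.49 to 0.88, and it was 0.68 without the 2 mice farthest from the median of Psmc6. Psmd1 (ENSMUSG00000026229_at) and Psmd2 (ENSMUSG00000006998_at), the scaffold subunits of the base, gave r = 0.70 and rho = 0.66 (0.50 to 0.94 over batches, and 0.68 without the 2 farthest mice). Both pairs therefore held in every batch.

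The ATPase Psmc2 (ENSMUSG00000028932_at) and the ubiquitin receptor Psmd4 (ENSMUSG00000005625_at) followed with r = 0.69 and rho = 0.66 (0.53 to 0.85 over batches, 0.67 without the 2 farthest mice). Psmd4 and Psmd12 gave r = 0.68 and rho = 0.68 (0.42 to 0.87 over batches, 0.66 without 2 mice). The alpha-ring subunit Psma1 (ENSMUSG00000030751_at) and the deubiquitinase Psmd14 gave r = 0.68 and rho = 0.65 (0.38 to 0.84 over batches, 0.67 without 2 mice). In all 5 pairs r and rho alike had a two-sided permutation p of 1e-05, the smallest that 100000 permutations can give. Their p adjusted over all gene pairs lay between 8.46e-20 and 2.78e-18. The 5 pairs were picked by their r on these same mice, so the permutation p is no independent test. Permutations ran across batches and cohorts. With batch and cohort means removed, the 5 values of r were 0.69, 0.69, 0.64, 0.66 and 0.65, in the order given.

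**Figure D2:**
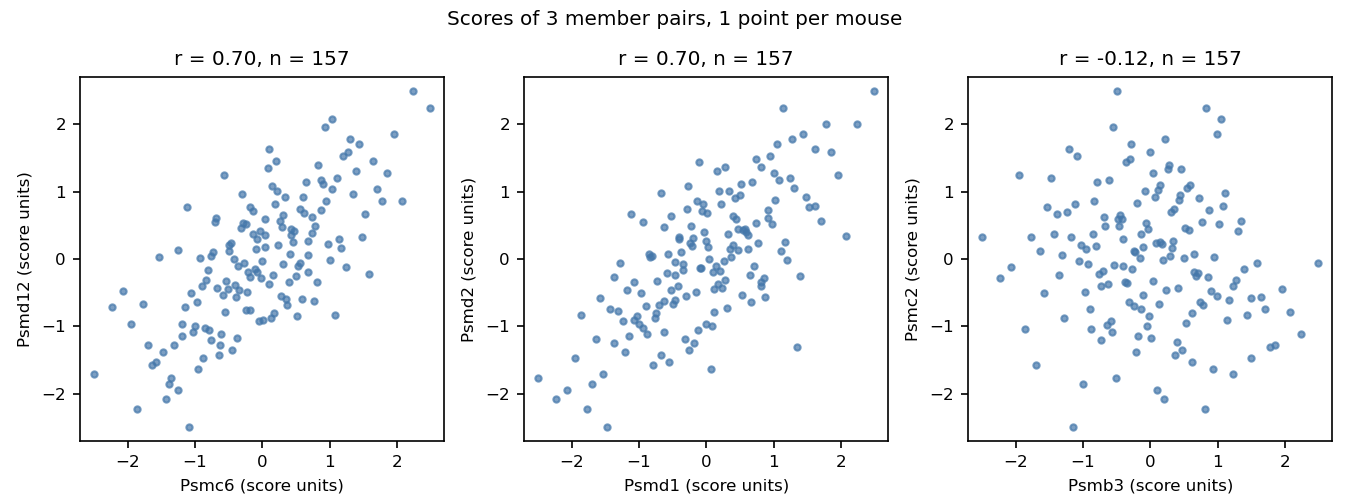
Scores of Psmd12 against Psmc6, Psmd2 against Psmd1 and Psmc2 against Psmb3, in score units on both axes, with 1 point for each of 157 mice. The first 2 pairs run along the diagonal at r = 0.70, and the third is a cloud at r = -0.12.

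At the other end, the 5 lowest pairs each held Psmb3, Psma5 or the pair Psmb1 and Psmd1. Psmb3 (ENSMUSG00000069744_at), a beta-ring subunit without a catalytic site, and Psmc2 gave r = -0.12 and rho = -0.13 (permutation p = 0.127 and 0.1, p = 0.331 adjusted over all gene pairs). Psmb3 gave r = -0.10 with Psmd12 and -0.01 with Psmc6. The alpha-ring neighbours in name Psma4 and Psma5 gave r = -0.04, and Psmb1 with Psmd1 gave -0.03. The permutation p of r for these last 4 pairs was 0.224, 0.873, 0.618 and 0.693. With batch and cohort means removed, Psmb3 and Psmc2 stood at -0.00, and their r changed sign between batches (-0.54 to 0.45).

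Promoter sequences of the 2 most closely correlated pairs and of the 2 subunits least tied to the others are printed for comparison. They come from RefSeq on build GRCm38.p6 and run from 250 bases before to 50 bases after the gene start. Capitals mark matches on either strand to TGANNNNGC, a looser pattern than the core of the antioxidant response element, which NRF1 and NRF2 bind, and to CCGGAA, an ETS factor core.
Psmc6 (chr14:45329574-45329873, plus strand): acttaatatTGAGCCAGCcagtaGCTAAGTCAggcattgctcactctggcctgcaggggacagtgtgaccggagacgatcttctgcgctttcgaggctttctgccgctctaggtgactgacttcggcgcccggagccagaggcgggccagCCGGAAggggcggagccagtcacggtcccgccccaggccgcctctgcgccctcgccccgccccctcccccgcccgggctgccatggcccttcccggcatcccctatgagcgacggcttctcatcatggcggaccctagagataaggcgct
Psmd12 (chr11:107479278-107479577, plus strand): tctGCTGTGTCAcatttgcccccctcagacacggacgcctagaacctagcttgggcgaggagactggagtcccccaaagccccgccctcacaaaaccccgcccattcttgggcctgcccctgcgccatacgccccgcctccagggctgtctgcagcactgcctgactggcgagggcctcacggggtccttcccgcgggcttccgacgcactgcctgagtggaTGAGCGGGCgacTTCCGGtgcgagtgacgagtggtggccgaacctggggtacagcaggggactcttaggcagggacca
Psmd1 (chr1:86064369-86064668, plus strand): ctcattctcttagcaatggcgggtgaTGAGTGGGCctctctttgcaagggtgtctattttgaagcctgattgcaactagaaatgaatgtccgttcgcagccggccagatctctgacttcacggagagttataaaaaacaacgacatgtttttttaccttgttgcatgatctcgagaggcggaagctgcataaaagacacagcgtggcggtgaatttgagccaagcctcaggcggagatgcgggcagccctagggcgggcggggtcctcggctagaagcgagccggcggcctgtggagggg
Psmd2 (chr16:20651402-20651701, plus strand): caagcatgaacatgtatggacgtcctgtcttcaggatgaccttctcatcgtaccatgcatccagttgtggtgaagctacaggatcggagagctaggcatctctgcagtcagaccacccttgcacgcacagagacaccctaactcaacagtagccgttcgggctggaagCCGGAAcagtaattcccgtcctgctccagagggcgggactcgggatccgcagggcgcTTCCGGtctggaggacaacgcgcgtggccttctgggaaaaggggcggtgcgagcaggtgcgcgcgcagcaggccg
Psma5 (chr3:108256676-108256975, plus strand): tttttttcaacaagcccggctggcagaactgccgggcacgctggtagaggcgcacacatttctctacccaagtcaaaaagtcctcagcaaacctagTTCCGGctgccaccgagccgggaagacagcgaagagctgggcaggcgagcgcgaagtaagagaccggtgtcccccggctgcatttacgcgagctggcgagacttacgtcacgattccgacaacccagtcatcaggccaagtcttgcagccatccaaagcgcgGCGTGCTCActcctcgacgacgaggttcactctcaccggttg
Psmb3 (chr11:97703184-97703483, plus strand): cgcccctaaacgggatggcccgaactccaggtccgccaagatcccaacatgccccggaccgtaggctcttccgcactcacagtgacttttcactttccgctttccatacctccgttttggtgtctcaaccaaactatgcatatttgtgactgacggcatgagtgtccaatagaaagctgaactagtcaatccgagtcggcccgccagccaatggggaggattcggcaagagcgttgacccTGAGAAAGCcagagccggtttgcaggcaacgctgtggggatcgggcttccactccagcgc
The promoters of Psmc6 and Psmd12 each hold 2 matches to TGANNNNGC and 1 to CCGGAA. Those of Psmd1, Psma5 and Psmb3 hold 1 match to TGANNNNGC each, and that of Psmd2 holds 0 of them and 2 to CCGGAA. The promoter of Psma5 also holds 1 match to CCGGAA.

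The table had promoters for 24 of the 30 subunits, 26 sequences in all (none was used for Psmb1, Psmb2, Psmb7, Psmc3, Psmd3 and Psmd7). TGANNNNGC was found in 14 of the 26 (53.8%), against 41.3% of all 32851 promoters in the table. CCGGAA was found in 15 (57.7%, against 14.9% of all) and the GC box GGGCGG in 15 (57.7%, against 35.7%). TGACG, the core of the cyclic AMP response element, was in 12 (46.2%, against 20.8%), and CCAAT in 10 (38.5%, against 37.4%). All were searched on both strands, and TGACG can overlap TGANNNNGC. These shares are descriptions, as a match of letters is no binding site.

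Set against the whole table, most subunits had another subunit as their closest gene. For 18 of the 30, the gene with the highest r among all others was a subunit. When each subunit was compared with the mean score of the others, 11 ranked first among 23147 genes, 17 were in the first 10 and 26 in the first 200. The 11 were Psma1, Psma2, Psmb7, Psmc2, Psmc5, Psmc6, Psmd4, Psmd7, Psmd12, Psmd13 and Psmd14. They include members of each ring and of base and lid.

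Psmd4, the ubiquitin receptor, was the most central, with a mean r of 0.46 to the other subunits and an r of 0.79 with their mean score. Psmd14 followed with a mean r of 0.42 and reached 0.5 with 14 other subunits. In the beta ring, Psmb7, the trypsin-like catalytic subunit, had the highest mean r (0.41). Psmb6, the caspase-like subunit of the same ring, had 0.23. The 2 measured catalytic genes thus stood at opposite ends of the beta-ring range apart from Psmb3.

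Below them, Psmc3 ranked 11, Psmd1 18, Psmc4 25, Psmd11 57 and Psmd6 74. Psma7 (113), Psma3 (118) and Psmb1 (143) came next, then Psmd8, and Psmb4 (332) and Psmb6 (440) stood further off. Psma5 and Psmb3 were the least tied to the complex. Psma5 (ENSMUSG00000068749_at) had a mean r of 0.06 and a highest r of 0.21 (with Psmb7), and ranked 6122. Psmb3 had a mean r of 0.10 and a highest r of 0.25 (with Psmb6), and ranked 3796. Each had a closer partner elsewhere in the table, at r = 0.61 for Psma5 and 0.51 for Psmb3. The remaining 28 subunits had mean r values of 0.23 to 0.46. Of the 23146 genes that are no subunit, 52 (0.225%) reached an r of 0.5 with the mean score of all 30, and 1 (0.00432%) reached -0.5. Without Psma5 and Psmb3 the median over 378 pairs was 0.36, with 1 negative pair.

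**Figure D3:**
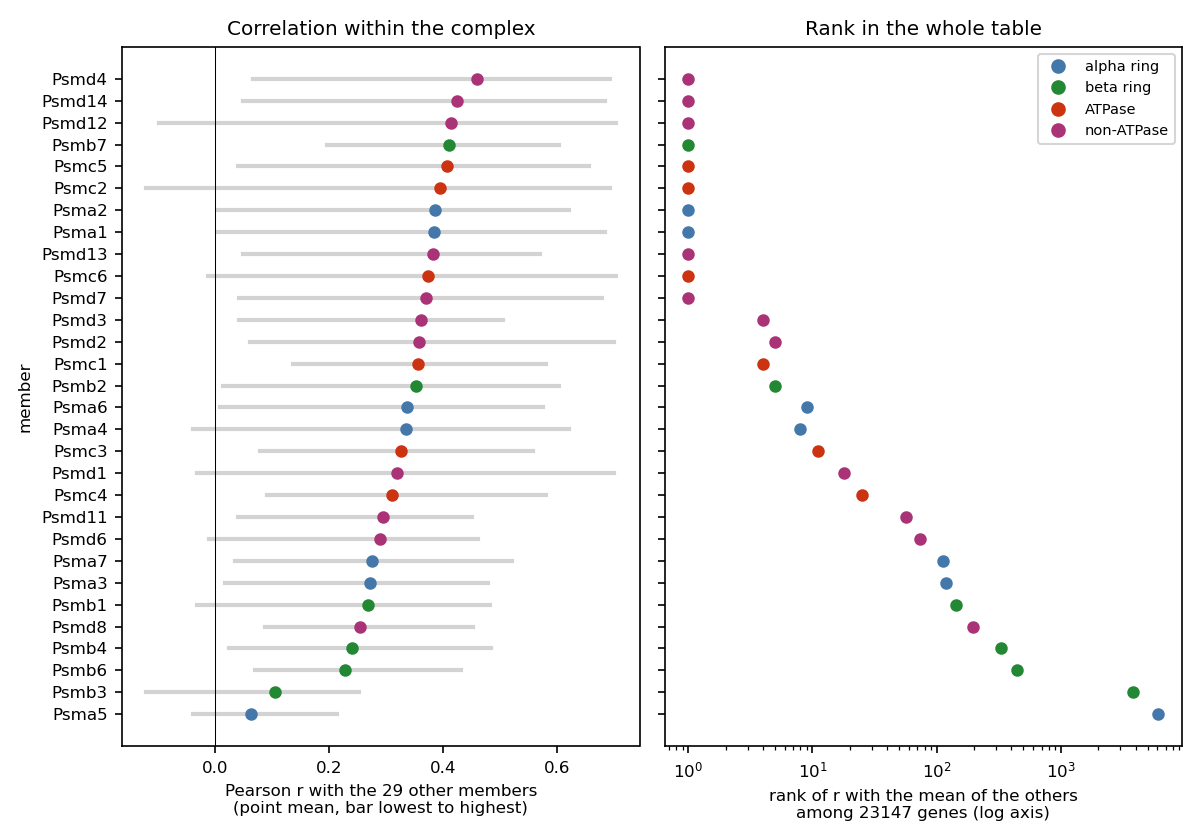
Left, Pearson r of each subunit with the 29 others over 157 mice (point for the mean, bar from lowest to highest, colour by role), and right, the rank of its r with the mean score of the others among 23147 genes on a log axis. Psmd4 leads with a mean r of 0.46, and Psmb3 and Psma5 close the list at 0.10 and 0.06.

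A single axis held much of this variation. Component 1 of the 30 subunits took 36.9% of their variance, with loadings of the same sign for all 30, and component 2 took 7.04%. The mean score of the subunits followed component 1 at r = 0.996, so the mean is used below as a summary. On component 2, Psmd1 (-0.37), Psmd2 (-0.33), Psmc4 (-0.24) and Psmd14 (-0.23) lay at one end. Psmb1 (0.32), Psmb4 (0.32), Psma6 (0.32) and Psma7 (0.26) lay at the other. The ends of the second axis thus set several 19S genes against several 20S genes. Other 19S genes, such as Psmc1 (0.185) and Psmd8 (0.100), lay on the 20S side, and Psma1 (-0.003) and Psmb2 (-0.006) lay near 0. Component 3 took 6.32%, close to component 2.

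The mean score ran from -1.60 to 1.67 over the mice (SD 0.575). In 19 livers at least 25 of the 30 subunits were above the median of the mice, and in 23 livers at least 25 were below it. In 1 liver all 30 were above it, and in 0 all were below it. Along the components of all genes, the mean score followed component 1 (size of r 0.42, rho 0.37) and component 4 (size of r 0.45, rho 0.40), which hold 12.1% and 2.43% of the variance. Without the 2 mice farthest along each component these were 0.36 and 0.45. Over the batches, taken with the pooled sign, they ran from -0.14 to 0.68 and from 0.14 to 0.73. Its correlation with the array mean was -0.12 (rho -0.09). With the array SD it was 0.03 (rho 0.20), or 0.21 without the 2 wide arrays, and the part of this in the results was not tested.

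Subunit scores were high in 2 cohorts, the first and the sixth. In cohort 1 (20 mice) the mean score was 0.386 ± 0.514 (SD), with a lowest mouse of -0.525, a median of 0.236 and a highest of 1.67. In cohort 6 (10 mice) it was 0.433 ± 0.603 (SD), with -0.983, 0.588 and 1.10 for the lowest, median and highest mouse. Most mice of these cohorts were above 0, 16 of 20 and 8 of 10.

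Cohort 7 (37 mice), killed on days 168 to 170 against days 141 to 142 for cohort 6, had -0.200 ± 0.530 (SD), from -1.19 through a median of -0.188 to 0.899. Its mice overlapped with those of cohorts 1 and 6, and 15 of 37 were above 0. Of the other cohorts, the lowest was cohort 4 at -0.251 ± 0.606 (SD, 5 mice). The highest was cohort 3 at 0.121 ± 0.625 (SD, 11 mice). All of these lay within 1 SD of 0, as did cohorts 1 and 6. In the 5 mice of cohort 4 the mean scores were -0.76, -0.00, 0.41, 0.11 and -1.01. In the 6 mice of cohort 5 they were -0.51, 0.66, -0.36, -0.72, 0.74 and -0.91. Both small cohorts held livers well above and well below 0. Cohort 10 was the most spread, at -0.014 ± 0.798 (SD, 13 mice), from -1.60 to 1.25.

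Counted by subunit, the highest cohort mean fell in cohort 6 for 14 and in cohort 1 for 11 of the 30. In cohort 6, 29 subunit means were above 0, and in cohort 1, 27 were. In cohort 7, 2 were. The lowest cohort mean was spread more widely, with 8 subunits in cohort 4, 6 in cohort 5, 5 in cohort 9 and 4 in cohort 7. Subunits are correlated, so these counts only describe the set, and they were not set against all genes. Cohorts 4, 5 and 6 hold only 5, 6 and 10 mice, so their means are less precise.

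**Figure D4:**
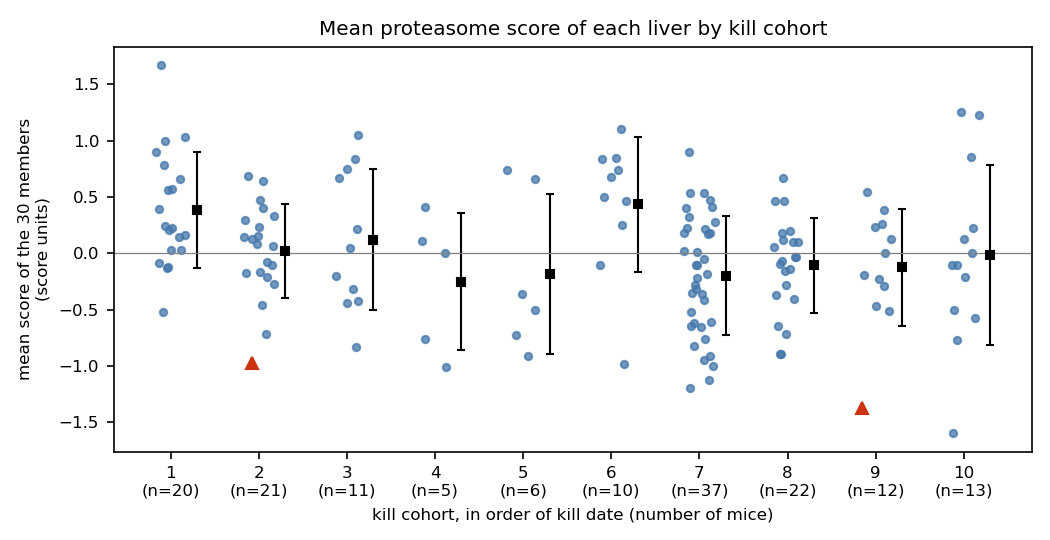
Mean score of the 30 subunits in each liver (points, score units) by kill cohort in order of date, with squares and bars for the cohort mean ± SD and red triangles for the 2 wide arrays. Cohorts 1 and 6 have the highest means, 0.386 and 0.433, and all cohorts overlap.

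Tests of single subunits were made across all 23176 genes with limma, with hybridization batch as a covariate and Benjamini-Hochberg adjustment over all genes. Moderation gave every gene nearly the same SE, so the errors below hold little of a gene's own spread. The F test over the 10 cohorts called 4 of the 30 subunits (13.3%), against 2.45% of all genes. These were Psmc6 (adjusted p = 0.0138), Psma1 (0.0200), Psmd7 (0.0372) and Psmc2 (0.0391). Cohort added a median of 9.56% to the variance of a subunit, compared with 6.55% over all genes, and 20.2% for Psmc6. By limma, 13 subunits lay under an unadjusted p of 0.05, against 16.8% of all genes. The 4 calls became 1 without cohort 1, 0 without cohort 7 and 2 without cohort 8, and they became 6 without the 2 wide arrays. With blocks of strain numbers as a further covariate, 0 subunits and 0 genes in all were called.

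Between cohorts 1 and 7, an early and a late one and both of good size, 6 subunits (20.0%) were lower in cohort 7 and 0 were higher. Of all genes, 2.50% were lower in cohort 7 and 0.997% higher. The difference was negative for 28 of 30 subunits. The median difference over the subunits was -0.57 score units, and 0.08 over all genes. Without adjustment, 16 subunits were lower at p under 0.05, against 9.60% of all genes, and 0 were higher, against 10.6%. The 6 were 2 ATPases, 3 non-ATPases and 1 alpha-ring gene. No beta-ring gene passed.

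Psmc6, an ATPase of the base, had scores from -0.135 through a median of 0.822 to 2.49 in cohort 1 and from -2.24 through -0.408 to 1.53 in cohort 7. The ranges overlap, though 18 of 20 mice in cohort 1 and 14 of 37 in cohort 7 were above 0. The batch-adjusted difference, cohort 7 minus cohort 1, was -1.30 ± 0.271 (SE, limma, adjusted p = 0.0023).

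Psmd12, a lid subunit, ran from -0.833 through 0.830 to 2.24 in cohort 1 and from -2.49 through -0.390 to 0.778 in cohort 7. The highest mouse of cohort 7 thus lay just below the median of cohort 1. Its difference was -1.26 ± 0.271 (SE, limma, adjusted p = 0.0028).

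Psmc2, an ATPase, ran from -1.14 through 1.07 to 2.24 in cohort 1 and from -2.24 through -0.306 to 1.17 in cohort 7. Here 16 of 20 against 12 of 37 mice were above 0. Its difference was -1.16 ± 0.271 (SE, limma, adjusted p = 0.0057).

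Psmd7, the lid partner of the deubiquitinase Psmd14, ran from -1.04 through 0.626 to 2.49 in cohort 1 and from -2.08 through -0.425 to 1.53 in cohort 7. In cohort 7 only 8 of 37 mice were above 0, against 14 of 20 in cohort 1. Its difference was -1.01 ± 0.271 (SE, limma, adjusted p = 0.0174).

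Psmd4, the ubiquitin receptor, ran from -1.24 through 0.635 to 2.49 in cohort 1 and from -2.08 through -0.175 to 1.35 in cohort 7. All but 2 mice of cohort 1 were above 0 (18 of 20), against 14 of 37. Its difference was -0.96 ± 0.271 (SE, limma, adjusted p = 0.0245).

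Psma1, of the gate-forming alpha ring, ran from -0.788 through 0.498 to 2.24 in cohort 1 and from -2.49 through -0.340 to 0.951 in cohort 7. The numbers above 0 were 14 of 20 and 12 of 37. Its difference was -0.87 ± 0.271 (SE, limma, adjusted p = 0.0454), the closest of the 6 to the threshold.

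Among subunits that did not pass, Psmc5 (-0.82, adjusted p = 0.0595), Psmb6 (-0.77, 0.0814) and Psmd2 (-0.75, 0.0871) came nearest in limma. Psmb3 (0.40 ± 0.271, SE) and Psma5 (0.15 ± 0.271, SE), the 2 genes outside the shared pattern, were the 2 with a positive difference (limma adjusted p = 0.396 and 0.785). Within the 7 batches that hold both cohorts, the mean score of the subunits was lower in cohort 7 in 6, and the difference ran from -1.62 to 0.204. Psmc2, Psmc6, Psmd4, Psmd7 and Psmd12 were lower in all 7 of these batches, and Psma1 in 6. These 6 were picked on the same mice. Psmb6 and Psmc1, which did not pass, were also lower in all 7, while Psmb3, Psmb4, Psmc4 and Psmd3 were lower in 3. Batches 1, 7 and 8 held only 2 mice of cohort 1, batches 2, 4 and 5 held 3, and batch 3 held 5. Batch 8 held only 2 mice of cohort 7 as well. With the block of strain numbers fitted as well, limma called 0 subunits and 3 genes in all. At an unadjusted p under 0.05 there were 11 subunits, against 12.3% of all genes. The median difference stood at -0.64 over the subunits and 0.08 over all genes. The differences of the 6 were then -0.87 to -1.20 with an SE of 0.417. Strain numbers and kill date largely cannot be told apart. Blocks 0, 1, 2 and 4 held 70 mice of the first 6 cohorts and 6 of the later ones, while blocks 3 and 5 held 3 and 78.

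**Figure D5:**
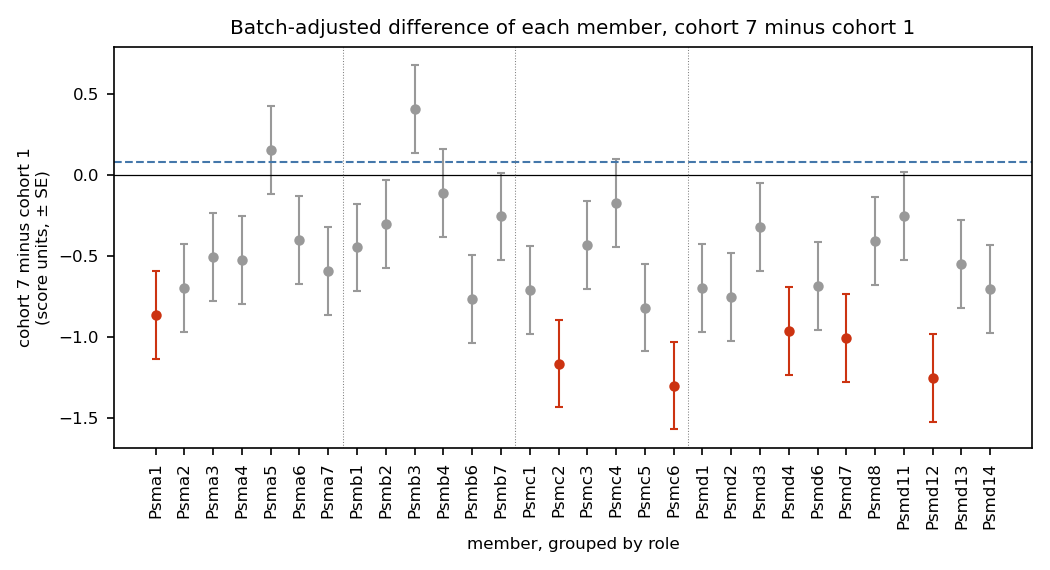
Batch-adjusted difference of each subunit, cohort 7 minus cohort 1, in score units with SE bars, grouped by role, with red for an adjusted p under 0.05 over all genes and a dashed line at the median of all genes (0.08). The 6 red points lie between -1.30 and -0.87, and Psma5 and Psmb3 lie above 0.

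Of the other pairs of cohorts, 2 with 1, 8 with 2, 9 with 8 and 7 with 6 were compared, and limma called 0 subunits in each. Between cohorts 1 and 2, 26 of 30 subunits were lower in cohort 2, with a median of -0.36 against 0.08 over all genes. There, 11 were lower and 0 higher at an unadjusted p under 0.05 (6.62% and 9.70% of all genes). After adjustment 0 were called (0.108% of all genes lower and 0.0475% higher). From cohort 2 to cohort 8 the median was -0.04 (-0.09 over all genes), with 1 subunit, Psmd7, lower at an unadjusted p under 0.05 and 0 higher (8.02% and 5.19% of all genes). After adjustment 0 were called (0.673% of all genes lower and 0.828% higher). From cohort 8 to cohort 9, 0 subunits were called (0.00431% of all genes higher). At an unadjusted p under 0.05 there were 0 as well (3.40% of all genes lower and 5.14% higher).

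Cohort 7 was also compared with cohort 6, a pair chosen after their means were seen. The median difference was -0.67 score units, against 0.03 over all genes, and 28 of 30 subunits were lower in cohort 7. Limma called 0 subunits and 0 genes in all and, at an unadjusted p under 0.05, 14 subunits were lower and 0 higher (4.87% and 4.86% of all genes). Within batches, the mean score was lower in cohort 7 in batches 2, 3, 4 and 6 and higher in batches 5 and 7 (-1.31 to 0.319). Batches 3, 4, 5 and 7 each held 1 mouse of cohort 6, and both ends of this range come from them. Batches 2 and 6, with 3 mice of cohort 6 each, gave -0.584 and -1.12. Of the single subunits, Psma1 had the largest batch-adjusted difference (-1.50 ± 0.349, SE, limma adjusted p = 0.278). The 2 comparisons share cohort 7, and are given side by side for that reason.

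Over the whole series of kill days, 4 subunits fell and 0 rose (13.3%, against 2.36% of all genes falling and 1.13% rising, 3.49% in all, limma). At an unadjusted p under 0.05, 10 fell and 0 rose (9.20% and 6.42% of all genes). Per 100 days, the score of Psmd7 fell by 0.40 ± 0.0898 (SE), with a limma adjusted p of 0.0019. Psmc6 fell by 0.31 (adjusted p = 0.0225), Psmc2 by 0.31 (0.0229) and Psmd12 by 0.31 (0.0275), each with the same SE. These 4 are among the 6 that differed between cohorts 1 and 7, which enter both fits. Slopes were negative for 24 subunits, 80.0% against 47.5% of all genes, with a median of -0.11 against 0.01. The nearest that missed were Psmd4 (-0.28, adjusted p = 0.0552), Psma1 (-0.28, 0.0569) and Psmd14 (-0.26, 0.0789).

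With the block of strain numbers fitted, limma called 0 subunits and 0 genes in all, and the slopes became -0.26 for Psmd7, -0.16 for Psmc2, -0.16 for Psmd12 and -0.03 for Psmc6 (SE 0.147). Without cohort 1, it called 1 subunit, Psmd7, and 1.13% of all genes. In cohorts 1 to 6 alone the slopes were -0.51 for Psmd12, -0.43 for Psmc2, -0.35 for Psmd7 and -0.20 for Psmc6 (SE 0.237 to 0.246). In cohorts 7 to 10 alone these 4 slopes were above 0. Neither subset gave a call for any gene, and each had 1 subunit under an unadjusted p of 0.05, against 5.15% and 4.96% of all genes. Within single batches, 28 of the 32 slopes of these subunits were negative, with Psmd7 negative in all 8. The limma errors treat mice killed together as independent. The slopes of the late cohorts minus those of the early ones, tested as an interaction, called 0 subunits and 0 genes in all (1 subunit at an unadjusted p under 0.05, against 5.18% of all genes).

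Array batch touched the subunits about as often as other genes. Limma called 3 of the 30 (10.0%) with cohort as a covariate, against 12.2% of all genes. These were Psmb4 (adjusted p = 0.0020), Psmc2 (0.0101) and Psmd14 (0.0294). Batch added 21.4% to the variance of Psmb4, and a median of 6.07% to that of a subunit against 6.68% over all genes. Fluidic station called 0 subunits and array slot 0, in limma, and 0 genes in all. At an unadjusted p under 0.05 these were 0 and 1 subunits (11.4% and 5.07% of all genes).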

How the data were processed

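Liver RNA was hybridized to Affymetrix whole-transcript arrays, 1 per mouse. Probes were summarized per Ensembl gene by a custom definition file (NCBI 37, Ensembl 49), per the series design text, and RMA and affy are named, per the submitters' processing notes. The values deposited by the authors are a score per gene and array. For all 23176 genes they equal, within 6e-05, the normal quantile of the array's rank, a step no label describes. It removes levels, spread and fold changes, and founder variants under a probe would enter the ranks.

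Kill dates at most 3 days apart formed a cohort. Scores were fitted with limma 3.58.1 (R 4.3.3, lmFit and eBayes with trend), and correlations used Python 3.11.15, numpy 2.4.6 and scipy 1.17.1. Both were tested on simulated data. For limma these were independent genes without batch or strain effects, so that check does not cover the structure of these data. Genes were called at an adjusted p under 0.05 over all genes. Precision is limited by how many arrays there are, and p-values rest on the spread between mice of different strains.

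The subunits, lists and tests were chosen with earlier results of these data known. All measured subunits were named, with the 5 highest and 5 lowest pairs. Lists of related genes (immunoproteasome, activators, assembly factors, NRF1 and NRF2 axes, chaperones) and cell type markers were not used here, since their identifiers have no symbol in the tables used. Genes most like the subunits were counted but not named, for the same reason. Alternatives are listed in the closing section.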

Additional observations from a re-analysis of the deposited data

Results flagged for a closer look

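In cohorts of 5 to 10 mice, 93 sets of scores (30 subunits and their mean in cohorts 4, 5 and 6) were examined for a mouse far from the rest by Dixon's test, and 5 had one. Chance gives about 1 in 20. In cohort 4, mouse 3 was high for Psmb3 (1.70, next mouse -0.532) and for Psmb7 (1.58, next -0.382), and mouse 5 was low for Psmd8 (-1.64, next -0.040). In cohort 5, mouse 5 was high for Psmb2 (1.24, next -0.799). In cohort 6, mouse 10 was low for Psmd4 (-1.96, next -0.248).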

How the results depend on the processing

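In the F test over cohorts, the 4 calls became 0 when blocks of strain numbers were fitted, 1 without cohort 1, 0 without cohort 7 and 2 without cohort 8, and leaving out each mouse of cohort 4 gave 3 to 5. Genes called in all went from 2.45% to 0, 0.889%, 1.29% and 1.11% in those first 4 settings. The 4 subunits with a trend became 7 with hybridization day in place of batch, 1 without cohort 1, and 0 with the block, in cohorts 1 to 6 or 7 to 10 alone, and within each of batches 1 to 8. Of all genes, 3.49% were called in the full fit, 4.28% with hybridization day, 1.13% without cohort 1 and 0 in the rest. In cohorts 7 to 10 alone the slopes of Psmc2, Psmc6, Psmd7 and Psmd12 were 0.099, 0.348, 0.132 and 0.397 per 100 days (SE 0.238 to 0.249), opposite in sign, while in cohorts 1 to 6 alone they were -0.426, -0.199, -0.351 and -0.507. Of 32 slopes within batches, of subunits picked on the same mice, 28 kept the sign. The exceptions were Psmc6 and Psmd12 within batch 4 (0.117 and 0.122) and Psmc2 and Psmd12 within batch 7 (0.159 and 0.036). The 6 subunits between cohorts 1 and 7 became 0 with the block, where the median difference over the subunits was -0.64 (-0.57 without the block). The 3 between batches became 0 with slide number in place of batch. Slide numbers start again in each batch, so that setting tests another factor and does not bear on the batch calls. Subsets hold fewer mice; otherwise the cause was not tested.

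The median r between subunits was 0.16 within batch 4, 0.53 within batch 6, 0.49 within batch 8, 0.19 within cohort 2 and 0.52 within cohort 10. Of the subunit pairs, 251 reached an r of 0.3, 53 one of 0.5 and 1 one of 0.7. The 52 other genes with an r of 0.5 to the mean score became 22 with batch and cohort removed, 97 with array means subtracted, 9 with component 1 removed and 34 without the wide arrays. In 63 other pairings of a result with a setting, counts stayed within 1.5 times and medians within the spread over batches. Leaving out cohort 6, the trend without cohort 1, the interaction, cohort 7 against 6, added settings for cohort 7 against 1 and its within-batch values, correlations within cohorts, without Psma5 and Psmb3, and by base, lid or chromosome were chosen after seeing the data. No paired analysis was possible because the mice carry no shared numbers in the labels, and theirs here only name them.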

Other observations

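Subunits differed in how many genes of the whole table varied with them. Psmc6 had 84 genes at an r of 0.5 or more and 13 at -0.5 or less, and Psmd14 had 81 and 2. Psmd12 had 45, Psmc2 42, Psmd13 and Psmd2 28 each, and Psmd1 27, while Psma3, Psmd8 and Psmd11 had 0. Over all genes, 463868 of 268551900 pairs (0.173%) reached an r of 0.5. Counts per gene were not taken for genes that are no subunit, so none of these counts is shown to be unusual. Psmc6 was also the subunit that followed component 1 of all genes most closely (size of r 0.53), and removing that component left its mean r with the other subunits at 0.30. For Psmd14, the closest gene in the table was no subunit (r = 0.73), and its closest subunit was Psma1 (r = 0.68).

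Among genes that are no subunit, the highest r with the mean score of the subunits was 0.62 and the lowest -0.52. They are not named, as no table used here gives their symbols.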
